A study of Mus musculus with 78 samples.

Results

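The amygdala libraries of a mouse series on the acetate enzyme ACSS2 were compared between genotypes. They were chosen by the region in the sample titles, and they number 11 of 78 libraries. ACSS2 KO mice gave 6 of them and wild-type (WT) mice 5, each library from a different mouse. The KO libraries came from male mice 1, 2 and 10 and from female mice 4, 5 and 6. The WT libraries came from male mice 3, 12 and 13 and from female mice 23 and 24. All mice were adult and of strain C57BL6/J. The KO is constitutive, so every cell of the body lacks the deleted stretch. Per the labels' protocols it was made in embryos with CRISPR guides in the introns before exon 3 and after exon 7, and founders were backcrossed to C57Bl6/J for 3 generations. Every mouse of both genotypes had the treatment labelled DiD 2BC + 1B, a drinking-in-the-dark schedule of binge-like intake. After 1 week of habituation, single-housed mice were offered 15% (v/v) ethanol beside water for 2 h on days 1 to 3 and for 4 h on day 4. In the following week the sessions offered the ethanol without water. No mouse without ethanol is in the series, so a genotype difference here is one between drinking mice.

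ACSS2 joins acetate to coenzyme A in the cytosol and nucleus. The acetyl-CoA it makes can be used for lipid synthesis and for the acetylation of histones. Ethanol is oxidised by way of acetaldehyde to acetate, largely in the liver, and the acetate reaches the brain in the blood. The amygdala holds glutamatergic neurons of a cortical kind in its basolateral part and GABA neurons of a striatal kind in its central part. It borders the striatum, the hypothalamus, the piriform and temporal cortex, the ventral hippocampus and the temporal horn of the lateral ventricle. Its stress peptides and its GABA and glutamate synapses are widely studied in alcohol drinking.

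Acss2 lies on the plus strand at chr2:155517948-155585724 (GRCm38, GENCODE M21). Its transcript Acss2-201 has 18 exons, and the guides flank 5 of them, exons 3 to 7. Those exons hold 460 bases, which is 21.9% of the coding bases and 15.7% of the transcript. A length of 460 leaves a remainder of 1 on division by 3, so a transcript spliced from exon 2 to exon 8 would not keep the reading frame. The first and the last of the flanked exons are shown to mark the ends of the missing coding stretch. Capitals mark the exon, and lower case marks 20 bases of the neighbouring exon on each side as they are joined in the transcript.
Acss2 exon 3, chr2:155549191-155549282, 5′ to 3′: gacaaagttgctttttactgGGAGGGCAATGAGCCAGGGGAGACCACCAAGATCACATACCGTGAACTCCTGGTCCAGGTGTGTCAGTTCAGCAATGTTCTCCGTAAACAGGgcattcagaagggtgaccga
Acss2 exon 7, chr2:155550355-155550469, 5′ to 3′: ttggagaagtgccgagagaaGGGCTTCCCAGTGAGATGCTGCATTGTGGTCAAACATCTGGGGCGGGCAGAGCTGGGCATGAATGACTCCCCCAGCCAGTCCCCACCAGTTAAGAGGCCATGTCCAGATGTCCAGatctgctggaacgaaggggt
Counts were made per gene and not per exon, so the reads that remain in KO libraries cannot be assigned to exons inside or outside this stretch.

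Acss2 mRNA was lower in all 6 KO amygdala libraries than in all 5 WT libraries. Values are counts scaled to a common library size (CPM), scaled between libraries by the TMM method. Male WT libraries of mice 3, 12 and 13 had 43.4, 49.5 and 43.5 CPM, and female WT libraries of mice 23 and 24 had 66.8 and 41.96 CPM. Male KO libraries of mice 1, 2 and 10 had 5.54, 7.73 and 6.41 CPM, and female KO libraries of mice 4, 5 and 6 had 8.40, 8.55 and 5.60 CPM. The groups did not overlap, and the highest KO value lay far below the lowest WT value. The means were 7.04 ± 1.37 CPM in KO (SD, n = 6) and 49.0 ± 10.3 CPM in WT (SD, n = 5), so KO libraries held 14.4% of the WT level. The log2 fold change of KO over WT was -2.82 ± 0.15 (SE) with a 95% interval of -3.16 to -2.48, and the adjusted p of edgeR's quasi-likelihood test was 1.77e-05. Males gave -2.80 and females -2.85, a difference of 0.05 ± 0.32 on the log2 scale (SE, unadjusted p = 0.868 in edgeR's test). KO libraries also lay below all WT libraries in each of the other 6 regions. Acss2 overlaps Gss, Ggt7, Gm20637, Mipep-ps and the antisense gene Acss2os in the annotation, and Acss2os had 0 or 1 count in every amygdala library.

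**Figure D1:**
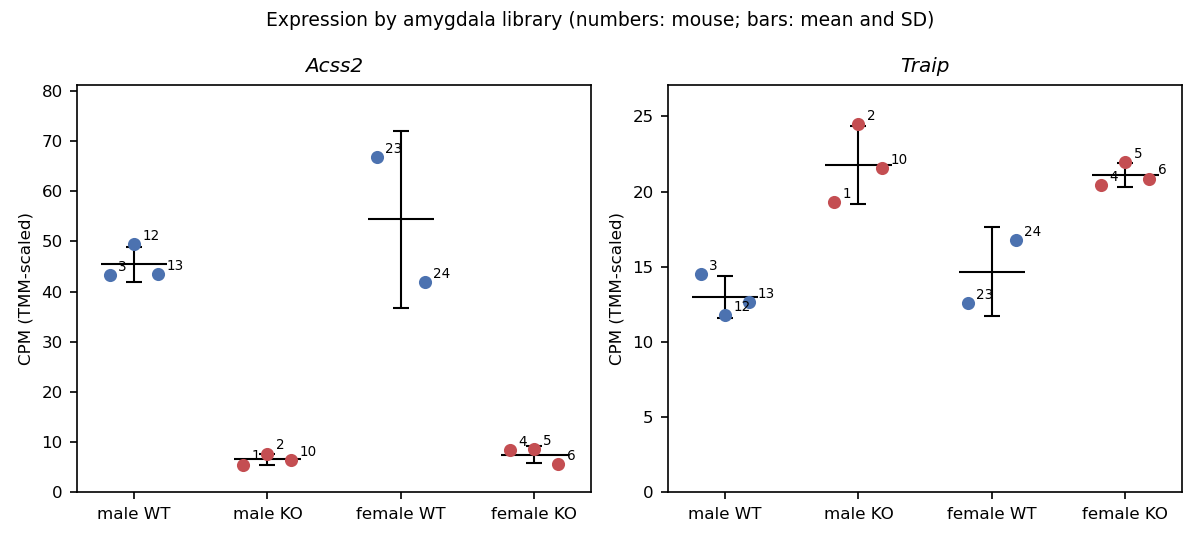
TMM-scaled CPM of Acss2 (left) and Traip (right) in each amygdala library, by sex and genotype. Points are libraries numbered by mouse, and bars are the group mean and SD. For Acss2, KO points lie at 5.54 to 8.55 CPM and WT points at 41.96 to 66.8 CPM, and for Traip at 19.3 to 24.5 and 11.8 to 16.8 CPM.

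The amygdala libraries were even in depth. Total counts ran from 7263067 to 9142592 with a median of 7929940, so a count of 3 stood for 0.328 to 0.413 CPM. Their mitochondrial transcripts took 3.25 to 5.87% of the counts. Xist was at 358 to 593 CPM in libraries labelled female and at 0 to 0.407 CPM in those labelled male, and the Y-linked gene Ddx3y was at 0 to 0.128 and 60.3 to 97.3 CPM. The labels thus held for sex and for Acss2. No library pair within a group was as close as sampling noise allows: chi-square per gene ran from 8.10 for female KO mice 4 and 5 to 43.8 for male WT mice 12 and 13.

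Markers of amygdala neurons were read against ventral striatum and dorsal hippocampus of the same series, in CPM on library totals. For pallial glutamatergic neurons, the median over the amygdala libraries lay above the ventral striatum median for 10 of 10 genes and above the dorsal hippocampus median for 4. For central amygdala GABA neurons it lay above for 3 and 11 of 12 genes, and for intercalated and medial neurons for 4 and 8 of 9. In each of these lists 3 or 4 genes were above both regions. Slc17a7, the vesicular glutamate transporter of such excitatory neurons, spanned 196 to 1721 CPM in the amygdala, against medians of 127 CPM in ventral striatum and 1344 CPM in dorsal hippocampus. Esr1, the oestrogen receptor gene found in the medial amygdala, ran from 5.04 to 27.98 CPM, with medians of 2.76 and 1.11 CPM. Apart from Isl1 and Otp, the genes of the 3 lists were detected in every library, at levels that differed widely between mice. Most genes of the 3 lists were not above both regions. The peptide gene Sst ran from 162 to 377 CPM, with medians of 112 and 124 CPM. Rspo2, a marker of basolateral neurons, ran from 1.79 to 52.2 CPM, with medians of 2.33 and 10.7 CPM. Prkcd, a marker of the lateral central nucleus, was at 6.06 to 51.9 CPM (median 14.5), with medians of 14.5 and 53.0 CPM in those regions. Isl1 was at 0 in male KO mouse 10, and Otp, of the intercalated and medial list, was at 0 in male KO mouse 2. Striatal projection neuron genes were below the ventral striatum median for 11 of 11 genes.

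The cell content of the dissected tissue differed between mice of the same group more than between genotypes for 17 of 18 cell-type lists, by the within-group SD of the list level against its KO minus WT difference. The SD is that of single libraries and the difference that of group means, so this count is a description and not a test. The exception was the thalamic list, with a difference of -0.49 beside an SD of 0.40 on the log2 scale. Its highest level was in male WT mouse 12, at 4.22 against 2.52 to 3.62 in the others, and the difference was -0.16 without mice 4, 5 and 12. Those mice were picked after the levels were seen, so the smaller difference is not independent of that choice. Female KO mice 4 and 5 carried choroid plexus transcripts, male WT mouse 12 carried hypothalamic transcripts, and female KO mouse 6 carried the most striatal transcripts. In bulk tissue, fewer cells of a type and less RNA per cell cannot be told apart, and the part of these differences in the results below was not tested beyond the values given. List levels are the mean log2 CPM over the genes of a list. Of 41 lists, 1 had KO and WT levels that did not overlap (2.44%), the chromosomal neighbours of Acss2 described below, and none of the 18 cell-type lists did.

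Choroid plexus, the epithelium that secretes cerebrospinal fluid, gave the widest spread. Ttr, which encodes transthyretin and is the most abundant mRNA of that epithelium, was at 5234 and 8637 CPM in female KO mice 4 and 5. In female WT mice 23 and 24 it was at 412 and 452 CPM, in female KO mouse 6 at 90.7 CPM, in male WT mice 3, 12 and 13 at 89.2, 18.2 and 6.01 CPM, and in male KO mice 1, 2 and 10 at 5.56, 5.78 and 12.9 CPM. Both high libraries are KO and female, and the other KO libraries overlap the WT libraries. Kcne2, a potassium channel subunit of the same cells, was at 33.8 and 40.8 CPM in female KO mice 4 and 5 and at 0.131 to 2.62 CPM in the other 9 libraries. The folate receptor gene Folr1 was at 36.9 and 37.5 CPM there and at 0.131 to 3.15 CPM elsewhere. The 8 choroid plexus genes summed to 5684 and 9190 CPM in these libraries and to 21.1 to 535 CPM in the others. Ependymal genes, of the ciliated cells that line the ventricle, moved with them: Foxj1 was at 27.6 and 48.9 CPM against 2.47 to 16.1 CPM. The same 2 libraries were also highest for the hippocampal CA1 gene Fibcd1, at 355 and 133 CPM against 7.07 to 16.6 CPM, and for Dsp, a gene of dentate granule cells, at 5.99 and 13.02 CPM against 0.271 to 1.40 CPM. These were picked after the values were seen, and the list was mixed: Wfs1, also of CA1, was at 103 and 112 CPM (median 167), Calb1 at 170 and 117 CPM (median 220) and the dentate gene Prox1 at 21.8 and 25.7 CPM (median 18.3, highest 36.6).

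In the 11-library comparison 8 of 8 choroid plexus genes had positive fold changes, with a median of 1.73. None passed the adjusted threshold. Kcne2 had 3.31 ± 0.97, Aqp1, a water channel, 2.77 ± 0.92, Folr1 2.498 ± 0.90 and the potassium channel Kcnj13 2.42 ± 1.11 (log2, SE), and all 4 had an adjusted p of 0.992 in edgeR's test. Ttr itself had 0.12 ± 1.65. Without mice 4, 5 and 12, a selection made after the levels were seen, Kcne2 was too low to be tested and the median of the other 7 genes was -0.70 on the log2 scale (1.04 for those 7 over all libraries), and Aqp1, Folr1 and Kcnj13 had -0.70, -0.98 and -2.19. The ependymal median was 0.75 over all libraries, and for the 4 genes still tested (Dynlrb2 was not) it was 0.59 with and -0.08 without those mice. Mice 4 and 5 were left out for their high values in these lists, so the lower medians follow from that choice.

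Several hypothalamic genes were high in male WT mouse 12. Avp (vasopressin), Pmch (melanin-concentrating hormone) and Oxt (oxytocin) were at 912, 533 and 123 CPM there. Hcrt, Sim1 and Pomc were also highest there. Other members of the list were not: Trh was at 28.3 CPM (highest 77.8, in male KO mouse 10). Hdc was at 2.38 CPM (highest 7.33, in female KO mouse 5), and Agrp was at 0. Avp was at 145 CPM in female KO mouse 6 and at 0.984 to 9.45 CPM in the other 9 libraries. Pmch was at 145 CPM in male WT mouse 3 and 49.2 CPM in female KO mouse 4, and at 0 to 1.84 CPM elsewhere. The list summed to 1657 CPM in mouse 12 and to 9.4 to 200 CPM in the others. Mouse 12 also had the lowest sum of excitatory genes, 1526 CPM against 2999 to 5595 CPM, and the highest thalamic sum, 328 CPM against 80.0 to 257 CPM. Its red blood cell genes summed to 179 CPM against 12.5 to 65.9 CPM. The median log2 fold change of the 7 tested hypothalamic genes was -0.81 over all libraries and 0.75 without mice 4, 5 and 12. Its sign therefore turned with 3 libraries. Mouse 12 was left out after its high values in this list were seen, so the change is not independent of that choice.

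Striatal projection neuron genes had positive fold changes in 11 of 11 cases, with a median of 0.69, and none had an unadjusted p under 0.05. Drd2, the dopamine D2 receptor gene, was at 68.4 CPM in female KO mouse 6, 26.8 in male KO mouse 2, 23.3 in female WT mouse 24 and 20.02 in female KO mouse 5, and at 2.14 to 11.4 CPM in the other libraries. The list summed to 2804, 1416, 1302 and 1097 CPM in those libraries and to 502 to 727 CPM in the others. The high libraries thus came from 3 KO mice and 1 WT mouse, and the ranges overlapped. The median was 1.02 without mice 4, 5 and 12. Female WT mouse 23 stood apart in some interneuron genes. Its Lamp5, a gene that some pallial neurons also express, was at 293 CPM against 32.6 to 79.5 CPM. Its Pvalb was at 91.8 CPM against 3.66 to 33.9 CPM. Cck, Npy and Vip were also highest there, and Cort was above its median. The list was mixed: Calb2, Reln and Htr3a were at 29.8, 37.6 and 7.19 CPM, below their medians of 92.1, 46.1 and 12.3 CPM.

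Myelin genes had negative fold changes in 11 of 11 cases, with a median of -0.75 (-0.59 without mice 4, 5 and 12), and none had an unadjusted p under 0.05. Mbp, the myelin basic protein gene, was at 1126, 3192 and 530 CPM in male WT mice 3, 12 and 13, at 519, 1175 and 402 CPM in male KO mice 1, 2 and 10, at 1394 and 3715 CPM in female WT mice 23 and 24, and at 2319, 2270 and 1122 CPM in female KO mice 4, 5 and 6. The highest libraries were WT and the lowest were KO, with overlap in both sexes. On the list level, KO minus WT averaged over the sexes was -0.59 on the log2 scale beside a within-group SD of 0.85. The microglial, astrocyte and endothelial lists varied far less. Microglial levels ranged over 0.47 log2 units, with KO minus WT at -0.07 and a within-group SD of 0.13, and 10 of 10 genes had 95% intervals within 2-fold. Astrocyte levels differed by -0.13 beside an SD of 0.17, and endothelial levels by -0.09 beside an SD of 0.18. Single genes could vary more: Gfap of the astrocyte list ran from 31.4 to 397 CPM. The mural and meningeal list was less even, with a range of 1.18 log2 units and a within-group SD of 0.41. Excitatory genes differed by 0.17 beside an SD of 0.83, and central GABA genes by -0.15 beside an SD of 0.71. Without mice 4, 5 and 12 these differences were -0.08 and 0.23, both of the opposite sign. Those mice were picked after the levels were seen, and mouse 12 had the lowest excitatory level, so the turn is not independent of that choice.

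Over the 18 cell-type lists 153 of 157 genes were tested, none passed the adjusted threshold, and 12 had an unadjusted p under 0.05 (7.84%, beside the 3.7% over all genes tested). The 7 higher ones were the 4 choroid plexus genes above, Dsp at 1.89 ± 0.76 and the ependymal genes Dynlrb2 and Tmem212 at 2.17 ± 0.65 and 2.07 ± 0.74 (log2, SE). All 7 had their highest values in female KO mice 4 and 5. The 5 lower ones came from glia and vessels: the astrocyte calcium-binding protein gene S100b (-0.49 ± 0.16), Olig1 and Enpp6 of the oligodendrocyte lineage (-0.36 ± 0.15 and -0.83 ± 0.31), the endothelial gene Ly6c1 (-0.29 ± 0.12) and the smooth muscle gene Tagln (-0.61 ± 0.27). S100b was at 81.6 to 160 CPM in KO and at 106 to 194 CPM in WT, and KO and WT ranges overlapped for all 12. Their adjusted p was 0.992 in edgeR's test.

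**Figure D2:**
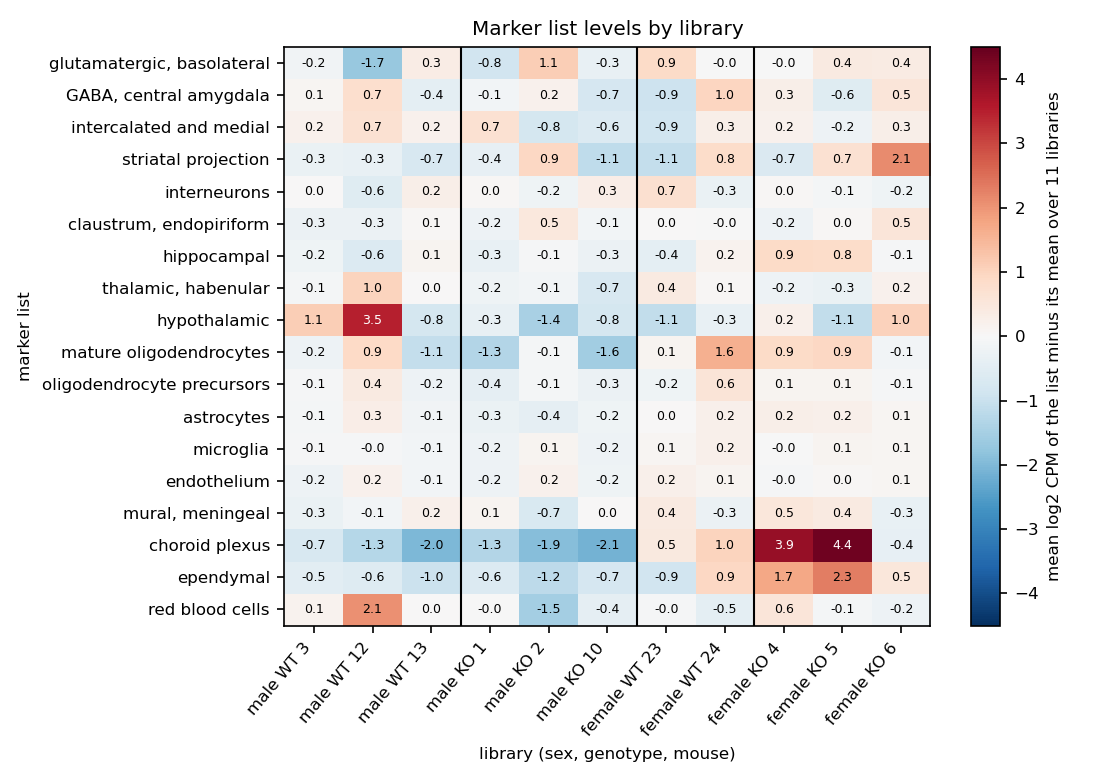
Levels of 18 marker lists (rows of the map) in the 11 amygdala libraries (columns, by sex, genotype and mouse). Each cell is the list's mean log2 CPM minus its mean over the 11 libraries, and vertical lines divide the groups. Choroid plexus stands out in female KO 4 and 5, hypothalamic genes in male WT 12 and striatal genes in female KO 6, while microglia and endothelium are nearly even.

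Among 14813 genes tested across the 11 libraries, 1 passed the adjusted threshold of 0.05, Acss2 itself (0.00675%). At an unadjusted p under 0.05, 548 genes differed (3.7%). Of these, 332 had higher (2.24%) and 216 lower (1.46%) levels in KO. KO and WT ranges did not overlap for 31 genes (0.209%), of which 20 were higher and 11 lower. DESeq2's Wald test called 2 genes, Acss2 and Traip, the latter described below.

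Most fold changes were small, and most intervals were narrow enough to bound them. Without Acss2, 14812 genes had a median absolute log2 fold change of 0.10 beside a median SE of 0.14. The 5% and 95% quantiles were -0.37 and 0.40. The 95% interval lay within 2-fold in either direction for 86.0% of the genes and within 1.5-fold for 65.4%. For the 10232 genes with a mean of at least 10 CPM these shares were 95.4% and 83.6%, and for the 2330 genes of at least 100 CPM they were 97.3% and 85.7%. For most well-expressed genes the data therefore bound the genotype difference at less than 2-fold, while smaller changes could not be told from the spread between mice. An absolute log2 fold change over 1 was fitted for 169 genes, 121 up and 48 down, but for 28 of the genes at 10 CPM or more and for 1 at 100 CPM or more.

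Many of the largest fold changes peaked in a few libraries. Of the 121 genes with a log2 fold change over 1, 85 (70.2%) had their 2 highest values in female KO mice 4 and 5, the libraries with choroid plexus transcripts. Of the 48 genes under -1, 28 (58.3%) were highest in female WT mouse 23 and 12 (25%) in male WT mouse 12. Over all 14812 genes without Acss2, mice 4 and 5 held the 2 highest values for 7.41%. The highest value was in female WT mouse 23 for 13.5% and in male WT mouse 12 for 13.98%. Genes fitted higher in KO mostly peak in a KO library and genes fitted lower in a WT library by the choice of genes, so these counts describe which mouse carries the peak. Of the 332 genes with higher levels and an unadjusted p under 0.05, 81 (24.4%) had their 2 highest values in mice 4 and 5. By the single highest value, 81 (24.4%) peaked in male KO mouse 2 and 77 (23.2%) in male KO mouse 10. Over all genes these 2 mice held the peak for 9.74% and 12.1%. Genes that peaked in mouse 4 or 5 without the other of the pair in second place are not in these counts. Without mice 4, 5 and 12 there were 268 genes at an unadjusted p under 0.05. Of these, 126 were shared with the 548, which is 22.99% of the larger and 47.01% of the smaller list, and 121 of the 126 kept their sign. Acss2 remained the gene called, at -2.91 (adjusted p = 0.00503, edgeR).

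**Figure D3:**
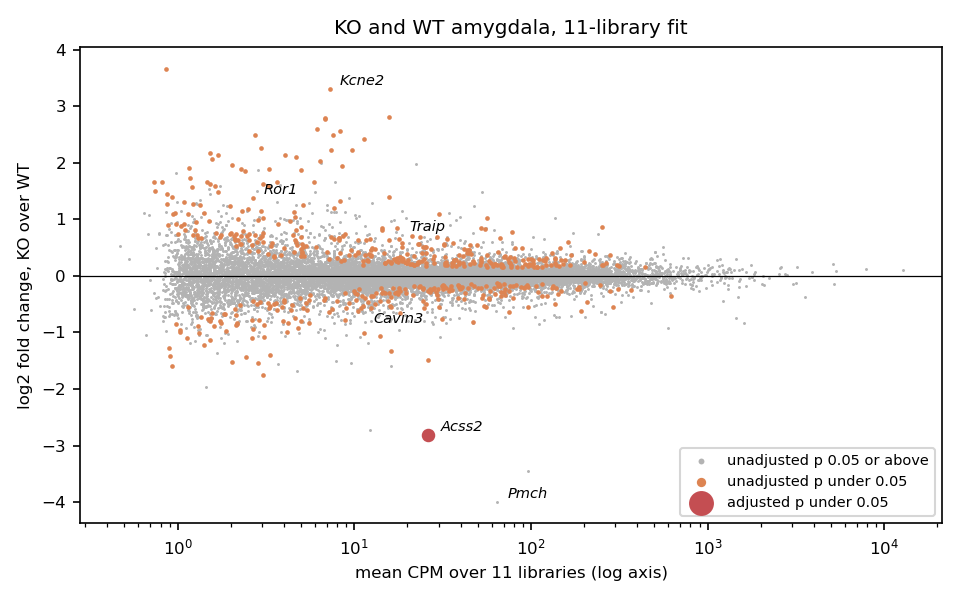
Log2 fold change of KO over WT against mean CPM over the 11 libraries (log axis), 1 point per gene tested. Orange marks an unadjusted p under 0.05, and the red point is Acss2, the gene past the adjusted threshold. Points spread most at low levels, and Pmch, highest in male WT mice 12 and 3, has a larger fitted change than Acss2 without a small p.

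Traip, which encodes an E3 ubiquitin ligase that acts on stalled replication machinery, came next after Acss2 among genes of at least 1 CPM. It lies at chr9:107950136-107972270 on the plus strand, with no annotated overlap. Male WT mice 3, 12 and 13 had 14.5, 11.8 and 12.6 CPM and female WT mice 23 and 24 had 12.6 and 16.8 CPM. Male KO mice 1, 2 and 10 had 19.3, 24.5 and 21.6 CPM and female KO mice 4, 5 and 6 had 20.4, 21.97 and 20.9 CPM. All 6 KO libraries lay above all 5 WT libraries. The log2 fold change was 0.65 ± 0.11 (SE, 95% interval 0.40 to 0.89), 0.74 in males and 0.53 in females. Its adjusted p was 0.557 in edgeR's quasi-likelihood test, so it did not pass there, and 0.00779 in DESeq2's Wald test. Over 21 alternatives the fold change stayed between 0.53 and 0.74, and the adjusted p of those other than DESeq2 ran from 0.286 to 1.0.

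Traip was also compared in the other regions, in CPM on library totals. In ventral striatum the medians were 40.9 CPM in KO (19.9 to 54.3) and 23.8 CPM in WT (12.1 to 35.2). In prefrontal cortex the medians were 25.8 CPM in KO and 15.7 CPM in WT, with 4 libraries in each group. The KO median was above the WT median in all 7 regions, and the ranges overlapped in each of the 6 others. The regions come from the same mice and are not independent of each other, and Traip was picked for its small p in the amygdala. The KO effect was 0.79 ± 0.27 on the log2 scale in ventral striatum and 0.37 ± 0.19 in dorsal hippocampus. Neither differed from the amygdala by edgeR's test of the region term (differences of -0.14 ± 0.32 and 0.26 ± 0.23, SE, adjusted p = 0.997 and 1.0).

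The other genes with the smallest unadjusted p did not pass the adjusted threshold (adjusted p = 0.992 for each in edgeR's test). Of the 10 higher genes, 5 had ranges that did not overlap. Beside Traip these were Ror1, a receptor kinase of Wnt5a signalling, with a log2 fold change of 1.38 ± 0.30 (2.57 to 5.195 CPM in KO, 1.03 to 2.42 in WT), Zswim6, a zinc finger gene (0.51 ± 0.12, 22.8 to 36.4 and 18.8 to 22.04 CPM), Ccdc39, which organises the axoneme of motile cilia (0.51 ± 0.13, 23.9 to 35.1 and 16.9 to 22.1 CPM), and Ccdc17 (0.71 ± 0.18, 2.21 to 3.25 and 1.34 to 2.07 CPM). Ccdc39 was highest in female KO mouse 5, a library with ependymal transcripts. It was next highest in male KO mouse 2 (31.3 CPM), which had the lowest ependymal level. In female KO mouse 4, also with ependymal transcripts, it was at 27.9 CPM, and the part of ependymal content was not tested. Zswim6 was highest in female KO mouse 6. The other 5 overlapped. They were Mri1 of methionine salvage (0.47), the adhesion receptor gene Cxadr (0.41), the synaptic gene Csmd2 (0.28), the Rap exchange factor gene Rapgef6 (0.39) and Gm43254 (0.73).

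The lower genes beside Acss2 had ranges apart only for Was, the actin regulator of blood-derived cells and microglia, at -0.76 ± 0.21. Its KO libraries held 0.974 to 1.57 CPM and its WT libraries 1.60 to 2.34 CPM, low levels in each. The others overlapped: Cavin3, a coat protein gene of caveolae (-0.54 ± 0.12), Tnni1, a troponin subunit gene (-1.095), the matrix gene Emilin2 (-0.99), BC006965 (-1.01), Gjb6, which encodes the astrocyte gap junction protein connexin 30 (-0.53), Wdyhv1 (-0.44), the membrane progestin receptor gene Paqr7 (-0.33) and Slc2a1, which encodes the glucose transporter of the blood-brain barrier (-0.20 ± 0.06). These genes were chosen by the comparison that pools the sexes, so their direction in each sex and without single mice is not independent of the choice.

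Pathway lists were centred near 0. Of 23 lists, 20 had a median log2 fold change within 0.1 of 0, beside a median of 0.0019 over all genes without Acss2. Their 354 members included 338 tested, of which 1 passed the adjusted threshold (Acss2). At an unadjusted p under 0.05, 2 were higher and 8 lower, together 2.96% beside 3.7% of all genes, so the share is no larger than in the whole table. Some genes stand in more than 1 list. Adjusted p-values of the other members named below were 0.992 in edgeR's test.

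The enzymes that make and use acetyl-CoA showed no change beyond the spread between mice. Apart from Acss2, the list of 14 genes had fold changes from -0.13 to 0.17 with a median of 0.04. Acss1, the mitochondrial enzyme that also activates acetate, had 0.11 ± 0.14 (log2, SE), and Acss3 had -0.13 ± 0.69. Acly, which splits citrate into cytosolic acetyl-CoA, had 0.07 ± 0.07 and Crat, which moves acetyl groups onto carnitine, 0.11 ± 0.08. These genes, and those below that are given by role, were picked as the best-known members after values had been seen. The acetyl-CoA carboxylase genes Acaca and Acacb had -0.05 ± 0.08 and 0.17 ± 0.35. Of the 8 tested genes for ethanol oxidation, 7 had intervals within 2-fold. Cat had 0.02 ± 0.10 and Aldh2, the main acetaldehyde dehydrogenase, 0.02 ± 0.20. The exception was Aldh1a1 at -0.84 ± 0.45, which ranged from 6.29 to 48.0 CPM in KO and from 12.2 to 74.9 CPM in WT. Monocarboxylate transport genes, through which acetate and lactate cross membranes, had a median of 0.06, with Slc16a1 at 0.19 ± 0.16 and the lactate dehydrogenase gene Ldhb at -0.18 ± 0.11.

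Writers, erasers and readers of histone acetylation were among the most even lists. All 27 genes were tested, all 27 intervals lay within 2-fold, and fold changes ran from -0.18 to 0.22 with a median of 0.02. Crebbp and Ep300, the CBP and p300 acetyltransferases, had 0.02 ± 0.09 and 0.09 ± 0.09. The deacetylase genes Hdac2 and Hdac3 had -0.03 ± 0.10 and 0.03 ± 0.07. Kat6b, a lysine acetyltransferase gene, was the member with an unadjusted p under 0.05, at 0.22 ± 0.07. It was at 45.8 to 58.2 CPM in KO and at 41.4 to 48.6 CPM in WT. Its KO and WT ranges overlapped. The list level differed by 0.01 log2 units between genotypes beside a within-group SD of 0.04.

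Lipid and energy genes also had medians near 0, though some of these lists had wider ranges than the histone list. Sterol and fatty acid genes, which draw on cytosolic acetyl-CoA, had a median of -0.01, and 23 of 24 intervals lay within 2-fold. Their fold changes ran from -0.35 (Scd1) to 0.49 (Fdps). Hmgcs1, an early enzyme of cholesterol synthesis, had 0.05 ± 0.08, and Fasn, the fatty acid synthase gene, had 0.06 ± 0.08. Srebf2, the factor that switches on sterol genes, had 0.06 ± 0.08. Pmvk, a kinase of the mevalonate pathway, was the member with an unadjusted p under 0.05, at -0.23 ± 0.09. Glycolysis and citric acid cycle genes ran from -0.11 to 0.16, with 27 of 27 intervals within 2-fold. Mitochondrially encoded mRNAs had a median of 0.09 and ran from -0.43 (mt-Nd3) to 0.20 (mt-Nd5), with 10 of 11 intervals within 2-fold. Ribosomal protein genes had a median of -0.06, with 22 of 24 below 0 and none at an unadjusted p under 0.05, and their medians were -0.24 in males and 0.14 in females.

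Activity and plasticity genes had pooled medians near 0 that averaged opposite signs in the sexes. Immediate early factors had a median of -0.01, with 7 higher and 9 lower of 16 tested, and medians of 0.21 in males and -0.30 in females. Fos had -0.31 ± 0.23, with 6.07 to 12.5 CPM in KO and 7.43 to 16.3 CPM in WT. The highest Fos level was in female WT mouse 23, and the male libraries alone gave 0.05. Egr1 had -0.28 ± 0.34 and Npas4 0.27 ± 0.35. Among the effectors that such factors induce, Arc had -0.33 ± 0.39, Bdnf 0.00 ± 0.26 and Homer1 0.02 ± 0.28, and the list median was 0.01 (0.21 in males, -0.26 in females). These standard errors are large beside those of the histone list, so the 11 libraries bound these genes less closely. The levels of both lists were highest in female WT mouse 23 and lowest in male WT mouse 12.

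Receptors and channels that ethanol acts on, with endocannabinoid genes, had medians near 0 over both sexes, and the sexes differed in sign. The male and female medians were 0.27 and -0.13 for GABA-A subunits, 0.26 and -0.06 for ionotropic and 0.13 and -0.20 for metabotropic glutamate receptors, 0.25 and -0.16 for potassium channels and 0.19 and -0.22 for endocannabinoid genes. These differences between the sexes were not tested as lists. Among the cell-type lists, pallial glutamatergic markers also had medians of opposite sign, 0.62 in males and -0.20 in females. Central GABA markers had -0.29 and -0.24. The part of neuron content in the receptor and channel lists was not tested. Over all libraries GABA-A subunits had -0.01, with 11 of 13 intervals within 2-fold. Gabrb1 had 0.27 ± 0.16 and Gabra2 0.15 ± 0.21. Ionotropic glutamate subunits had 0.02, with Gria1 at 0.31 ± 0.17, Grin2b at 0.30 ± 0.27, Grin1 at -0.04 ± 0.14 and Gria4 at -0.19 ± 0.10. Metabotropic receptors and their Homer scaffolds had -0.01, with Grm5 at 0.24 ± 0.18. BK, GIRK and SK potassium channel genes had 0.09, and 8 of 8 intervals lay within 2-fold. Endocannabinoid genes had 0.00, with Cnr1, the cannabinoid receptor gene, at 0.34 ± 0.20. No gene of these 5 lists had an unadjusted p under 0.05.

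Stress and reward transmitter genes had wider intervals. Of 20 tested stress peptide and receptor genes, 10 were higher and 10 lower, and 10 intervals lay within 2-fold. Crhr1, the main receptor of corticotropin-releasing factor, had -0.53 ± 0.21 (unadjusted p = 0.0309 in edgeR's test), with 9.68 to 18.5 CPM in KO and 12.3 to 25.4 CPM in WT. The peptide gene Crh had -0.33 ± 0.42 and Npy -0.12 ± 0.33. Dopamine and serotonin receptor genes had the highest pathway median, 0.29, with 11 of 13 above 0. Among them are genes of striatal neurons: Drd2 had 0.96 ± 0.76 and Drd1 0.43 ± 0.48. Htr2c, a serotonin receptor gene, had 0.37 ± 0.16 (unadjusted p = 0.0461), with 154 to 233 CPM in KO and 81.6 to 178 CPM in WT. Htr2c is also strongly expressed by choroid plexus, and its level was 202 and 155 CPM in female KO mice 4 and 5. The lowest Htr2c level was in female WT mouse 23. Without mice 4, 5 and 12 the median fold change of the list was 0.08, while its level difference between genotypes was 0.25 against 0.15 over all libraries. Opioid genes had a median of 0.22, with Penk, also a striatal marker, at 0.74 ± 0.78 and Pomc at -0.52 ± 0.28.

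Glucocorticoid-responsive genes had a median of -0.04. Tsc22d3, a classical target of the glucocorticoid receptor, had -0.39 ± 0.13 (unadjusted p = 0.0111 in edgeR's test), and the metallothionein gene Mt2 had -0.29 ± 0.12. Other targets were near 0, with Fkbp5 at -0.06 ± 0.13 and Sgk1 at 0.01 ± 0.17. Acan, the main proteoglycan gene of perineuronal nets, had -0.79 ± 0.29 (unadjusted p = 0.0191), with 1.72 to 5.41 CPM in KO and 4.03 to 6.87 CPM in WT. Its highest level was in female WT mouse 23, the library with the most Pvalb. Circadian genes had a median of -0.03. Interferon and inflammatory genes had the lowest pathway median, -0.21 (-0.17 without mice 4, 5 and 12), with 9 of 10 tested below 0, and medians of -0.45 in males and 0.01 in females. B2m and H2-D1, which encode parts of class I antigen presentation, had -0.33 ± 0.11 and -0.33 ± 0.15 (unadjusted p = 0.0119 and 0.0443 in edgeR's test). B2m ranged from 39.5 to 64.8 CPM in KO and from 44.8 to 84.5 CPM in WT.

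**Figure D4:**
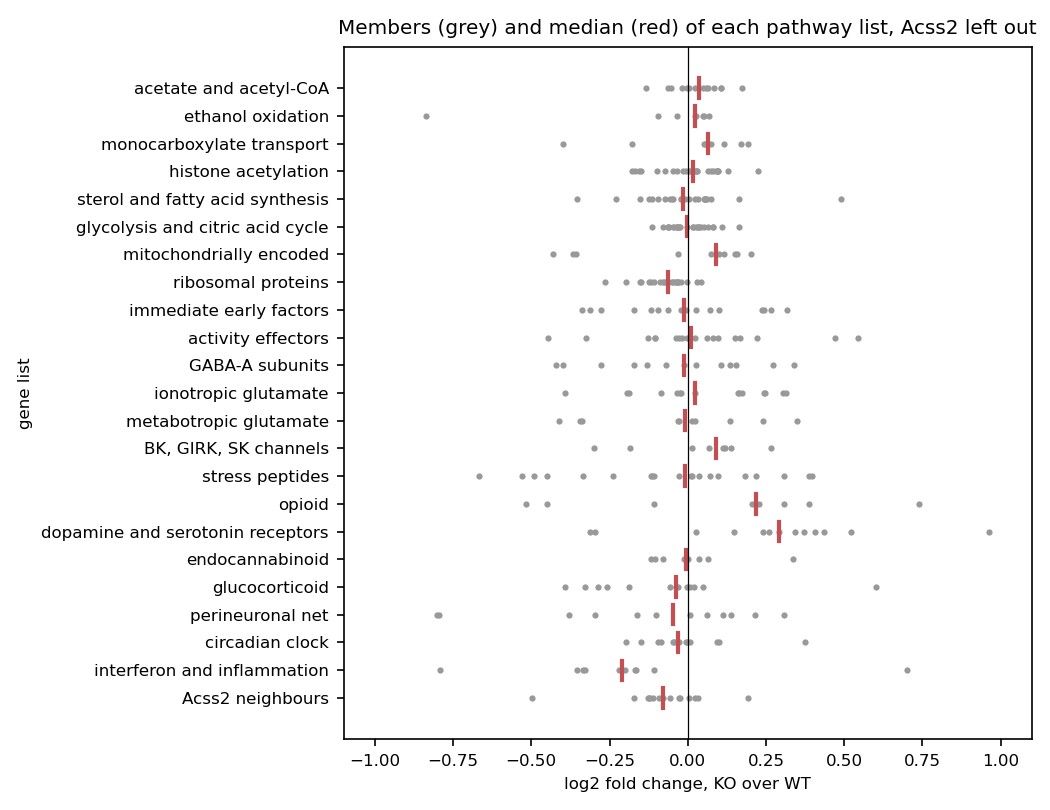
Log2 fold change of KO over WT for each tested member (grey points) and the median (red bar) of 23 gene lists, with Acss2 left out. Medians lie between -0.21 (interferon and inflammation) and 0.29 (dopamine and serotonin receptors).

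Genes beside Acss2 on chromosome 2 were the list whose levels did not overlap. The list level was 4.98 to 5.05 in KO and 5.07 to 5.18 in WT (mean log2 CPM), a difference of -0.10 beside a within-group SD of 0.04. With plain library totals in place of TMM scaling the ranges were 4.93 to 5.05 and 5.03 to 5.19 and overlapped. Of 15 tested neighbours, 11 were lower and 4 higher, and none had an unadjusted p under 0.05. Gss, the glutathione synthetase gene that overlaps Acss2, had -0.13 ± 0.16, and Ncoa6, the member with the smallest p, had 0.19 ± 0.09. The largest difference was in Myh7b, at -0.50 ± 0.26.

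The KO effect was next compared between the sexes, each of which fills its own deposited table. No gene of 15227 passed the adjusted threshold for a difference (0%) in edgeR's test, and 696 had an unadjusted p under 0.05 (4.57%). DESeq2's Wald test called 1, Gm10800. Across 14025 genes, which are not independent replicates, male and female fold changes had r = -0.09 and rho = -0.08, and 46.6% had the same sign. Across genes the fold changes thus had no common direction in males and females.

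The genes with the smallest p for the difference had opposite signs in males and females (adjusted p = 0.868 in edgeR's test). Manf encodes a protein secreted under endoplasmic reticulum stress. It was at 46.7 to 54.9 CPM in male WT, 38.1 to 40.2 in male KO, 50.8 and 49.4 in female WT and 56.9 to 58.0 in female KO libraries. Its fold changes were -0.37 in males and 0.20 in females, a difference of -0.56 ± 0.13. Elof1, a transcription elongation factor gene, had 28.1 to 29.7 CPM in male WT, 22.1 to 24.9 in male KO, 30.2 and 31.1 in female WT and 36.8 to 37.99 in female KO, a difference of -0.58 ± 0.14. For both genes KO and WT ranges were apart within each sex, in opposite directions. Gm10800, a predicted gene, had 36.8, 12.4 and 10.7 CPM in male KO mice 1, 2 and 10 and 0.233 to 3.09 CPM in the other 8 libraries, a difference of 5.66 ± 1.25.

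**Figure D5:**
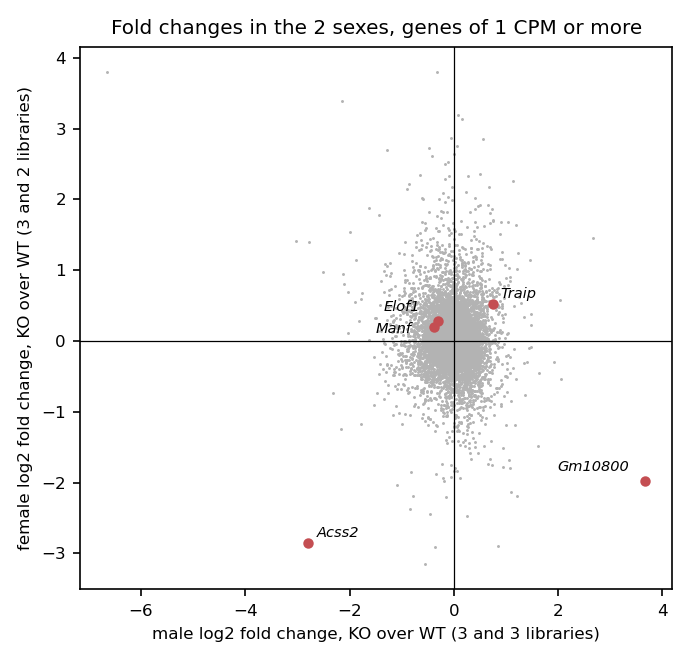
Female against male log2 fold change of KO over WT for genes of at least 1 CPM. Acss2 lies low in both sexes and Traip high in both, Manf and Elof1 lie on opposite sides of 0, Gm10800 is high in males alone, and the cloud has no diagonal.

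Finally, the KO effect in the amygdala was compared with that in ventral striatum and dorsal hippocampus, regions with 12 libraries each. For ventral striatum no gene of 14908 passed in edgeR's test (0%), and 496 had an unadjusted p under 0.05 (3.33%). For dorsal hippocampus no gene of 15374 passed (0%), and 309 had an unadjusted p under 0.05 (2.01%). Neither DESeq2 comparison called a gene. The Acss2 fold change was -2.82 in amygdala, -2.88 ± 0.25 in ventral striatum and -2.94 ± 0.16 in dorsal hippocampus. The smallest p values against ventral striatum were for Gm765, which was too low for the 11-library comparison, for Was (-0.76 in amygdala and 0.54 in ventral striatum, a difference of -1.30 ± 0.30) and for Grem1, a secreted antagonist of bone morphogenetic proteins (1.15 and -1.17, a difference of 2.32 ± 0.61), all with an adjusted p of 0.997. Against dorsal hippocampus they were for B2m (-0.33 and 0.26, a difference of -0.61 ± 0.14), the tubulin gene Tubd1 (0.51 and -0.30, a difference of 0.79 ± 0.19) and Mrip-ps (0.76 and -0.31, a difference of 1.05 ± 0.27), with adjusted p values of 1.0.

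The same mice gave both regions, apart from female WT mouse 11, which had no amygdala library. With the mouse as a block the comparison with ventral striatum called 1 gene. This was Nrip3, named after its values were seen, with a difference of 1.15 (adjusted p = 0.0195 in edgeR's test) and, without the block, of 1.30 ± 0.45 (adjusted p = 0.997). Its own fold changes were 0.43 ± 0.29 in amygdala and -0.86 ± 0.30 in ventral striatum. The comparison with dorsal hippocampus called 0 genes with the block.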

How the data were processed

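Poly(A) RNA was isolated from 300 ng of total RNA with NEBNext kits, per the labels' protocols. The authors deposited raw read counts per gene symbol, with a table for each sex and no normalization. STAR 2.5.2a, SAMtools 1.1, HTSeq 0.6.1, DESeq2 and R 4.0.2 are listed for the builds GRCm38 and mm10, per the submitters' processing notes. The annotation, strand setting and filters are not given in the sources used here, so reads of overlapping genes cannot be told apart. All 55367 symbols and every library column were used, and 53186 symbols had a unique GENCODE M21 (GRCm38) entry for positions.

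Libraries were grouped by their titles. KO was compared with WT over 11 libraries by the quasi-likelihood F test of edgeR 4.0.16 in R 4.3.3, beside limma 3.58.1, with sex as covariate, TMM scaling and filterByExpr (minimum count 10, minimum total count 15). Benjamini-Hochberg adjusted p-values cover all genes tested, with a threshold of 0.05. Differences by sex and by region were tested as interaction terms. The p-values measure the spread between mice within sex and genotype. The same mouse number marks the same animal in the labels, so regions are paired. The deviations of 11 such pairs from their group means correlated at a median of 0.09 (-0.11 to 0.26) with ventral striatum and 0.01 (-0.18 to 0.07) with dorsal hippocampus. The scripts were tested on simulated data. Intervals of the fold changes rest on the standard errors of the edgeR fits, so they also include the spread between mice. Floors that rest on counts cover counting error only.

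Alternatives were DESeq2 1.42.0 (size factors and Wald test), limma-voom with sample weights, edgeR's legacy and robust fits, no low-count filter, no sex covariate, each sex alone, a prior count of 0.5 in place of 2 for list levels, each mouse left out and the mouse as a block. List levels are mean log2 CPM with a prior count of 2. The genes named are Acss2, the 10 higher and the 10 lower genes with the smallest p and at least 1 CPM, the member with the smallest p in each list with those under an unadjusted p of 0.05 (at most 4), and the 3 genes with the smallest p in each difference, besides defining markers. The gene lists and comparisons were chosen with earlier results of these data known.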

Additional observations from a re-analysis of the deposited data

Results flagged for a closer look

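Within the 6 KO or the 5 WT libraries, the levels of the named genes and lists were checked for a library far from the rest of its group by Dixon's criterion. Of 228 group tests, 17 met it. The criterion is met about 1 in 20 times for independent, normally spread values. Gene levels were tested as CPM without a log scale, many genes were picked for a small p, and lists share genes. The count therefore cannot be set against that rate, and no cause was tested.

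Female WT mouse 23 was highest among WT libraries for Lamp5 at 300.9 CPM and for Tagln, a smooth muscle gene, at 10.2 CPM. Its list level was highest for perineuronal net genes at 5.80 and lowest for stress peptides at 3.33 and for dopamine and serotonin receptors at 2.64 (mean log2 CPM). Male WT mouse 12 was highest for the globin gene Hbb-bt at 6.53 CPM, for Pmvk at 44.9 CPM and for the red blood cell list at 4.05, and lowest for the phosphofructokinase gene Pfkl at 169 CPM. Female WT mouse 24 was highest for the ependymal genes Dynlrb2 and Tmem212 at 1.56 and 2.08 CPM and for their list at 1.72. Male WT mouse 13 was highest for Ror1 at 2.42 CPM and for Clock at 95.96 CPM. Among KO libraries, male mouse 2 was highest for Was at 1.57 CPM, and male mouse 1 was highest for Gm10800 at 36.8 CPM and lowest for mitochondrially encoded mRNAs at a level of 5.75.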

How the results depend on the processing

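Acss2 kept its direction and its adjusted call in 20 of 21 alternatives, and with each mouse left out its log2 fold change ran from -2.94 to -2.68. The female libraries alone called 0 genes, with Acss2 at -2.85 (adjusted p = 0.9752, edgeR), and DESeq2's Wald test called 2. The count at an unadjusted p under 0.05 was 548, and 987 with no low-count filter, 352 with no sex covariate, 268 without mice 4, 5 and 12 (an alternative added after seeing the data) and 385 to 841 with each mouse left out, the latter without mouse 24. The difference between the sexes called 0 genes, 1 by DESeq2's Wald test and 0 to 1 with each mouse left out (Gm765 without mouse 24, Tmem72 without mouse 6). With the mouse as a replicate block, the paired comparison with ventral striatum called 1 gene in place of 0, and the block changed no other call. The cause of these changes was not tested.

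Named genes kept direction and side of the threshold in 1457 gene and alternative pairs, reversed in 14, and 1, Traip by DESeq2's Wald test, passed the threshold. Without mice 4, 5 and 12, Aqp1, Folr1 and Kcnj13 turned to -0.70, -0.98 and -2.19 and Fos to 0.029. Females alone gave 0.29 for Hbb-bt, 0.0091 for mt-Nd3, -1.98 for Gm10800, 0.20 for Manf and 0.28 for Elof1, and males alone 0.047 for Fos. Elof1 was at 0.042 with no sex covariate and ran from -0.12 to 0.015 with each mouse left out, with 0.00068 without mouse 2. Neurod6 ran from -0.21 (without mouse 2) to 1.09. Of the list medians, 832 moved by less than the median SE of their members and 29, from 16 lists, by more. The depth of 7263067 to 9142592 counts limits genes below about 1 CPM, for which 3 counts are a sizeable share of the value.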

Other observations

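The predicted gene Gm10801 had the second smallest p over the 11 amygdala libraries, with a log2 fold change of 3.67 ± 0.66 (SE, adjusted p above the threshold in edgeR's test), but its mean was 0.856 CPM, under the level asked of a named gene. It was singled out after its values were seen.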
